A study of Mus musculus with 14 samples.

Results

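Accessible chromatin was described at 34 mouse genes of cholesterol synthesis and lipogenesis, in livers of mice with or without a pituitary and with or without growth hormone (GH). A DNase-seq peak of any library was linked to a gene when it overlapped the gene body or lay within 10 kb upstream of the start, and overlapping peaks of the 14 libraries (by 1 bp or more) were joined into regions. The members were named as a gene list and were not picked on the measured values of single regions. Of the 34 genes, 33 were found in the mm9 annotation and all 33 had a linked region, 148 regions in all of the 48148 in the series. Hmgcs1, the synthase that opens the mevalonate pathway, was not analysed here.

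All mice were CD-1 (ICR strain) from Charles River, 7 weeks old, and each library was a pool of DNase-released fragments from 3 livers, or 2 livers in hypophysectomized (hypox) female pool 1. Intact, untreated females gave 4 pools. Hypox females, untreated, gave 2 pools, and hypox males without GH gave 2 pools. Hypox males given 1 intraperitoneal injection of recombinant rat GH, 125 ng per g body weight, gave 2 pools each at 30, 90 and 240 min. All GH-treated mice thus also lacked the pituitary, and with it the hormones that drive other endocrine glands. Whether the untreated hypox males received vehicle is not clear from the labels, and intact males were not analysed here.

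Hepatocytes make cholesterol through the mevalonate pathway and fatty acids through acetyl-CoA carboxylation. Transcription of both sets of enzymes is driven by the sterol regulatory element-binding proteins (SREBPs), which are held in the endoplasmic reticulum by Insig proteins and escorted to the Golgi by Scap, and which bind sterol regulatory elements often flanked by NF-Y sites. ChREBP, encoded by Mlxipl, couples glucose to lipogenesis. GH signals in liver largely through STAT5, and it is known for restraining hepatic lipogenesis. A DNase-hypersensitive region is open chromatin at a promoter or enhancer, and its call says nothing by itself about transcription.

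Sequencing depth was 13078268 to 33700120 tags and each library gave 17691 to 35851 peaks and called 69 to 117 of the 148 regions. Intact female pool 3 stood apart. Promoters made up 15.8% of its called regions, against 26.4 to 44.2% in the other 13 libraries. GH 240 min pool 1 had the highest median pileup over regions shared by all libraries, 4.34 per 1000000 tags against 2.17 to 3.99 in the others. Library titles carry a code of unstated meaning: the untreated hypox males have G103, intact pools 3 and 4 have G93 and the other 10 libraries have G92. In males the effect of GH therefore cannot be told apart from the code, nor can sex be told apart from it in untreated hypox mice. Within G92 the GH pools are male and the untreated hypox pools female, so there GH cannot be told apart from sex. Hepatocyte markers had a region for 7 of 8 genes in every library (Serpina1a had none), Kupffer markers for 0 to 1 of 5 with Clec4f, Cd5l, Marco and Vsig4 at none, and lymphocyte markers for 0 to 1 of 4. Endothelial markers had one for 3 to 5 of 5, stellate markers for 1 to 2 of 4 and cholangiocyte markers for 1 of 4, Sox9. All 4 adipocyte markers had a region in some library, at Cidec in 14 libraries, Plin1 in 13, Adipoq in 11 and Lep in 11. In bulk liver, fewer cells of a type and less open chromatin per cell cannot be told apart.

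Sequences of some of the regions compared are given on the plus strand of mm9, 5′ to 3′. At Acaca, which encodes the acetyl-CoA carboxylase that commits carbon to fatty acid synthesis, 3 regions gained signal or calls after GH, and capitals mark the STAT5 consensus TTCNNNGAA. The first window was centred on the summit in GH 90 min pool 2 and the others on the highest summit of the region. Around the highest summit of the first region there is no match.
Acaca intron 16.6 kb from the gene start, chr11:83959912-83960111: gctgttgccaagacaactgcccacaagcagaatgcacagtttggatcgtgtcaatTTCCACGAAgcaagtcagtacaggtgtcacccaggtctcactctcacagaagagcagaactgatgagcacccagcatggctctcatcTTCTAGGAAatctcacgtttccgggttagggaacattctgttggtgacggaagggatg
Acaca alternative promoter 63.1 kb from the gene start, chr11:84006135-84006334: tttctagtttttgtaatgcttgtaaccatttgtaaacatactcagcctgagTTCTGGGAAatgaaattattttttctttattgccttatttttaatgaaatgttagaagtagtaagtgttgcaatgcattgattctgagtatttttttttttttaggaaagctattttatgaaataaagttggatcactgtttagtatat
Acaca intron 117.9 kb from the gene start, chr11:84060944-84061143: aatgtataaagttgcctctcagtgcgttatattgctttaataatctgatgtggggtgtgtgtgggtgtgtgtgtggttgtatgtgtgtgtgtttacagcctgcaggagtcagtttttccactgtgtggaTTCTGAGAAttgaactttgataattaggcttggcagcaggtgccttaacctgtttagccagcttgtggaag

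At Elovl5 and Elovl6, which encode fatty acid elongases, capitals again mark TTCNNNGAA in the regions called after GH, and in an intron of Fdft1, the squalene synthase gene, that had higher pileup after GH. At Fads2, the delta-6 desaturase gene, the region called in all GH pools holds no such match, and capitals mark an E-box, CACGTG. Introns of Acacb and Mlxipl that were called after GH and in no untreated hypox male pool also hold no match and are not printed.
Elovl5 intron, chr9:77802910-77803109: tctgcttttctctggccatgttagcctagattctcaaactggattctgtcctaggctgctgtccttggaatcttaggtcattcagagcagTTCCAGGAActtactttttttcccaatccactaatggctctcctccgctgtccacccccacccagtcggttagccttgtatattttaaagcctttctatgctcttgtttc
Elovl6 intron, chr3:129261720-129261919: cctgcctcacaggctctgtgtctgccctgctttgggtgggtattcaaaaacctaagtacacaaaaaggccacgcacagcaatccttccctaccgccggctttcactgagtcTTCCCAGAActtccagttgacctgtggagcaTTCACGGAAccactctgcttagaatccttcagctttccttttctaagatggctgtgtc
Fdft1 intron, chr14:63768901-63769100: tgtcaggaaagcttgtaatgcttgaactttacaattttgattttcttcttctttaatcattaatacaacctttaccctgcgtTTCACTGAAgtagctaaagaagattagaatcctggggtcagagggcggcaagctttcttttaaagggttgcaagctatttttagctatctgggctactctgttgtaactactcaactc
Fads2 upstream, chr19:10178833-10179032: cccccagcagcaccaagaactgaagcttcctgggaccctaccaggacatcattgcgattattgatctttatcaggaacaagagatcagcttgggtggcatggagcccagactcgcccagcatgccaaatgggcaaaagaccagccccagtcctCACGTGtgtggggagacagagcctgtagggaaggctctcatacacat

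At Srebf2, the SREBP gene of cholesterol synthesis, the intronic region that no GH pool called holds 3 copies of AGGTCA, a hexamer bound by nuclear receptors, in capitals. The Insig2 sequence is the promoter region called only in intact females, with annotated UTR bases left out and NF-Y boxes (CCAAT) in capitals. The Srebf1 promoter is shown because it holds an SRE core (TCACNCCAC), an NF-Y box and an E-box, all in capitals. The Pnpla3 region had the largest intact-to-hypox ratio and held no match to these.
Srebf2 intron, chr15:82014140-82014339: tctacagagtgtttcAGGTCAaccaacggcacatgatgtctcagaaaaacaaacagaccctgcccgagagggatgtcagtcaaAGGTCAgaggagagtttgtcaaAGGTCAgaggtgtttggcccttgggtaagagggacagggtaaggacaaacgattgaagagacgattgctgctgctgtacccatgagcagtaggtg
Insig2 promoter, chr1:123229167-123229353: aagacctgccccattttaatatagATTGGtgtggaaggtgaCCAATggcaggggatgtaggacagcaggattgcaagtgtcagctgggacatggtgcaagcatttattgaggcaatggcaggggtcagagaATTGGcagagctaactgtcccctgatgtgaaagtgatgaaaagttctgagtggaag
Srebf1 promoter, chr11:60036311-60036510: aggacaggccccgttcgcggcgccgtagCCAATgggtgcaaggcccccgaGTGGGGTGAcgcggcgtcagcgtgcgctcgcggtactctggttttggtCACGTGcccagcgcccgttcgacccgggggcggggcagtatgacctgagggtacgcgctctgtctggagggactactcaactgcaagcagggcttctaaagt
Pnpla3 promoter flank, chr15:83998979-83999178: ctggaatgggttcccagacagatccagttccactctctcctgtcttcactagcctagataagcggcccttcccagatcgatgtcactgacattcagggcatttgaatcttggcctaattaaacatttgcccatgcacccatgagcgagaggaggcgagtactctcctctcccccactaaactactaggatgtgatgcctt

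Most of the genes had a region that was called throughout. Of 33 genes, 25 had at least 1 region called in all 14 libraries, 75.8%, against 35.6% of 13967 other protein-coding genes with a region. The genes had a median of 3 regions and a median length of 23.6 kb, against 2 regions and 23.2 kb. Among the 148 regions 38 were called in all libraries, 25.7%, against 15.9% of 33895 regions at other genes. In 1 library alone 21 were called, 14.2%, against 21.4% at other genes. Of 44 regions within 1 kb of a start of their own gene 19 were called in all libraries, as were 15 of 77 in introns and 4 of 21 upstream. With starts of any protein-coding gene counted, 19 of 45 promoter regions here and 2473 of 11245 at other genes were called throughout. Where a peak had to cover at least 50% of the merged region, 13 genes kept a region in all libraries. The share at other genes is not given for that setting.

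**Figure D1:**
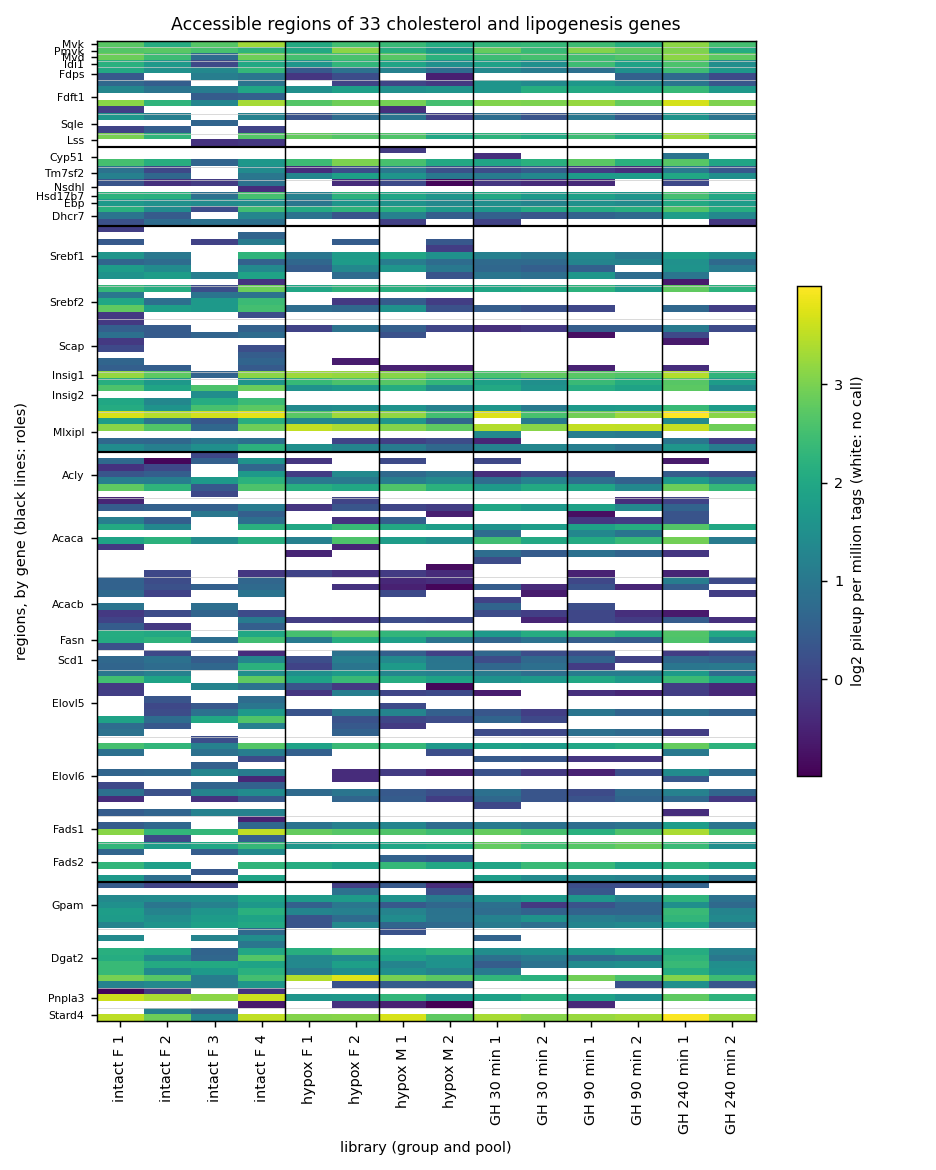
The heatmap gives each of the 148 regions as a row, grouped by gene and, between black lines, by role, and each library as a column; colour is log2 pileup per 1000000 tags and white is no call. Bright unbroken rows are the 38 regions called in all 14 libraries, and the fatty acid block, with 65 rows, is the tallest.

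The number of regions differed with the role. The 8 annotated genes from mevalonate to lanosterol held 16 regions, and 6 of these genes had a promoter called in all 14 libraries. Mvk and Pmvk, the kinases that phosphorylate mevalonate, Mvd, which decarboxylates it to isopentenyl diphosphate, and Idi1, which isomerizes that product, each held a single region, the promoter. The promoters of Sqle, which epoxidizes squalene, and Lss, which closes it into lanosterol, were called in 13 libraries and missed in intact pool 3. From lanosterol to cholesterol, 4 of 6 genes had a promoter called in all 14, namely Cyp51 (lanosterol demethylase), Hsd17b7 and Ebp (later sterol steps) and Dhcr7, the reductase of a final step. Tm7sf2, a sterol reductase, reached 13 libraries and Nsdhl, a sterol dehydrogenase, 11.

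The regulators and the fatty acid genes held more regions per gene. A region called in all libraries was found at 7 of 9 fatty acid genes and 4 of 6 regulators, against 6 of 8 genes from mevalonate to lanosterol and 4 of 6 from there to cholesterol, and no difference between roles was tested. The 9 fatty acid genes held 65 regions over a median length of 51.6 kb, 9 of them called in all libraries, and 3 of the 9 genes had a promoter called throughout: Acly, which makes cytosolic acetyl-CoA, Scd1, the stearoyl-CoA desaturase, and Elovl6. Fasn, the fatty acid synthase, Elovl5, Fads1 and Fads2 each had a promoter called in 13. The 6 regulators held 34 regions with 7 in all libraries, and Srebf1, with 9 regions, and Scap, with 8, had none. The 4 genes of triglyceride and sterol handling held 21 regions, 11 of them in all libraries, with the promoters of Gpam (glycerol-3-phosphate acyltransferase), Dgat2 (the last step of triglyceride synthesis), Pnpla3 (a lipid droplet lipase) and Stard4 (a sterol carrier) called in all 14. Of 20 regions called in exactly 13 libraries, 15 were missed in intact pool 3 alone and 14 of those were promoters, which is 75% against 79.2% at other genes. Leaving out 1 library at a time gave 25 to 31 genes with a region in all the rest.

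**Figure D2:**
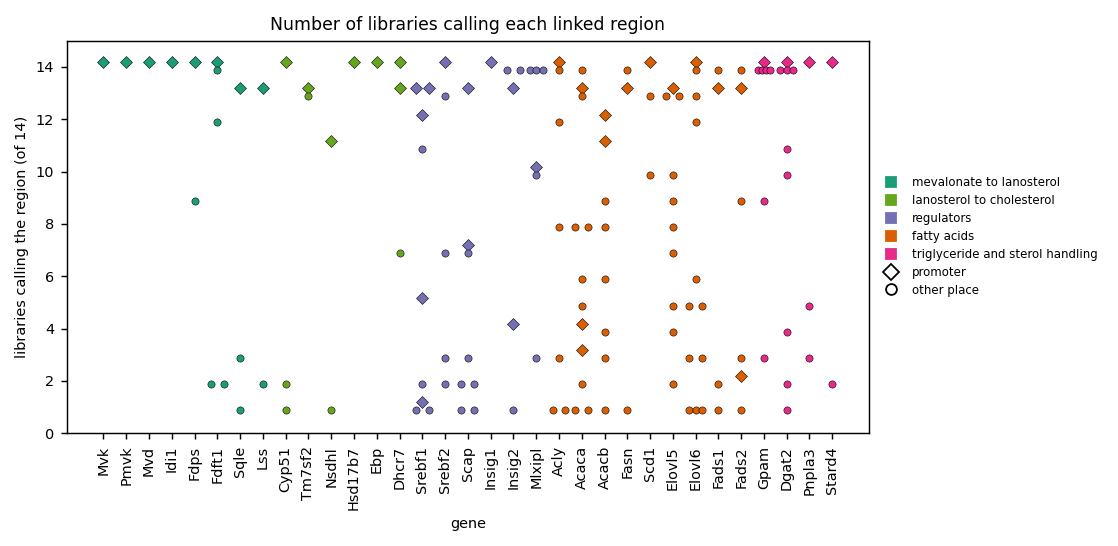
Each symbol is 1 of the 148 regions, placed by gene (x axis) and by the number of libraries, of 14, that called it (y axis); colours are roles and diamonds are promoters. Every role has regions called in 1 library and in all 14, and 19 of the 44 promoters lie at 14.

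The level of the constitutive regions was read from the pileup, the number of overlapping extended tags at a summit, given here per 1000000 tags of the library (scaled pileup), and from the fold enrichment over local background. Both are the authors' values for a peak in its own library, so they are described and not tested. Regions called in all libraries had a median fold of 10.1, against 9.02 at other genes. With the strongest such region taken for each gene, the highest median fold, 18.9, was at an upstream region of Mlxipl 5.8 kb from the start, followed by the promoters of Fdft1 (squalene synthase) at 16.96, Pmvk at 14.8, Mvk at 14.7 and Stard4 at 14.2. Fads1, the delta-5 desaturase gene, had 13.2 in an intron, and the promoters of Mvd and Dgat2 had 13.1 each. The Mvk promoter region also lies within 1 kb of the start of Mmab, so the 2 genes share it. By the same measure the lowest genes were Scd1 with its promoter at 6.63, then an intron of Gpam at 8.14, an upstream region of Fasn at 8.64 and the promoter of Fdps (farnesyl diphosphate synthase) at 9.57. Among all 38 regions the lowest were introns of Dgat2 at 5.26 and 6.06 and of Elovl6 at 6.44.

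The Fdft1 promoter gives an example of the spread at such a site. Its scaled pileup was 8.68, 4.81, 2.45 and 9.97 in intact females, 6.38 and 7.51 in hypox females, and 7.81 and 5.67 in hypox males. After GH it was 8.27 and 8.07 at 30 min, 9.20 and 7.09 at 90 min and 12.7 and 8.19 at 240 min. The lowest value was that of intact pool 3, the highest that of GH 240 min pool 1, and the groups overlapped.

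Removal of the pituitary was examined in females, where a region was called intact-only when all 4 intact and neither hypox pool called it. At these genes 5 of 138 regions were intact-only, 3.62%, and the same rule took 3.93% of regions at other genes. No region was hypox-only, against 0.699% at other genes. The 5 lay at Insig2, Elovl6, Acacb, Dhcr7 and Scap, 1 each, so 2 were at regulators, 2 at fatty acid genes and 1 at a cholesterol synthesis gene. Leaving out a pool can only keep or raise this count, since fewer pools must agree. It was 13 without intact pool 3, 9 without intact pool 2 and 13 without hypox female pool 2. Within code G92, intact pools 1 and 2 against the hypox females, it was 13. The share at other genes is not given for these settings.

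The Insig2 promoter region at chr1:123229000-123229478 was called in the 4 intact pools and in none of the 10 hypox pools. Insig2 encodes an SREBP-retaining protein that is enriched in liver. Scaled pileup was 3.95, 2.49, 4.28 and 5.29, and fold was 4.02 ± 0.72 (SD, n = 4). No hypox pool, with or without GH, reached a call there. Of the 10 hypox pools 8 were male, so outside the hypox females sex and loss of the pituitary cannot be told apart. Against all 10 hypox pools, a comparison chosen after the data were seen, this was the 1 intact-only region among 148, and 0.788% of regions at other genes met the same rule. Where peaks had to cover 50% of the region it was no longer intact-only.

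An intron of Elovl6 82.1 kb from the start (chr3:129317123-129317571) had the highest fold of the 5, 8.06 ± 1.15 (SD, n = 4). Elovl6 elongates palmitate to stearate. Scaled pileup was 1.38, 1.54, 2.29 and 2.32 in intact pools, 0.80 in GH 240 min pool 1, and no other pool called it. Intact values therefore lay above the single hypox value.

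Scap, the SREBP escort, had an alternative promoter 10.7 kb into the gene with fold 6.10 ± 0.69 (SD, n = 4) in intact females and calls in 3 of the 8 male pools. Dhcr7 had a region placed in a UTR with 5.30 ± 0.91 and calls in 3 male pools. Acacb, the carboxylase that governs fatty acid oxidation at mitochondria, had an intronic region at 15 kb with 4.40 ± 0.80. With only peaks of −log10 q of at least 5 kept, with lists of equal length, or with 50% of the region covered, the Acacb region was no longer intact-only, and with lists of equal length neither was the Dhcr7 region. The Elovl6 and Scap regions stayed intact-only under all 3 settings. The Acacb region recurs below, since 5 of 6 GH pools also called it.

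Among regions called in all intact and hypox female pools, scaled pileup did not overlap between the groups in 13 of 43. It was higher in intact females in 10, 23.3%, against 18.3% at other genes, and lower in 3, 6.98%, against 10.8%. The median log2 ratio of intact to hypox over the 43 was 0.215, against 0.118 over 6463 regions at other genes. On the fold scale the median was 0.022 against 0.006, with 6 regions higher and 5 lower in intact females. With pileup divided by each library's median it was 0.12 against -0.065, with 10 higher and 8 lower. Within code G92 scaled pileup was higher at 13 regions and lower at 10. These alternative counts have no share at other genes beside them. For scaled pileup, the count of higher regions was 16 without intact pool 2, 19 without hypox female pool 1 and 20 without hypox female pool 2. The count of lower regions was 5 without intact pool 1 or pool 4, and 8 without intact pool 3 or hypox female pool 1.

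The largest ratio was at Pnpla3, a gene whose human counterpart carries a common variant linked to fatty liver. The region lies 0.8 kb into the gene (chr15:83998713-83999675). Scaled pileup was 12.3, 10.3, 8.79 and 12.1 in intact females and 3.04 and 3.12 in hypox females, a ratio of medians of 3.63. Untreated hypox males had 4.88 and 3.12. GH pools had 3.60 and 4.48 at 30 min, 3.67 and 2.94 at 90 min and 6.80 and 4.71 at 240 min. Every intact pool, pool 3 included, stood above every one of the 10 hypox pools. Of those 10 pools 8 were male, so outside the hypox females this difference cannot be told apart from sex. Against all 10, again chosen after the data were seen, it was the 1 such region of 38, 2.63%, and 1.77% of regions at other genes were higher in the same way. None of the 38 was lower in intact females, against 0.911% at other genes.

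Next came an intron of Srebf2 37.5 kb from the start, with 6.88, 3.5, 3.21 and 5.66 in intact and 1.74 and 1.62 in hypox females, a ratio of 2.73. Hypox males had 2.93 and 1.19 there and GH pools 0.96 to 1.59, with no call in GH 90 min pool 2. The lowest intact pool was above the highest hypox pool, so this region missed the comparison with all 10 hypox pools only through its absent call.

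The Gpam promoter followed with a ratio of 2.31. Its scaled pileup was 3.35, 2.79, 3.36 and 3.76 in intact females against 1.23 and 1.68 in hypox females. The GH pools had 2.01 to 4.92 and overlapped the intact females. The Fdps promoter had 4.07, 2.91, 2.52 and 4.96 against 1.30 and 1.86, a ratio of 2.20, and was the 1 region of cholesterol synthesis in the set. On the authors' fold scale the groups overlapped at Fdps.

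Both remaining regions of Insig2 called in all libraries were also higher in intact females, with ratios of 1.98 in an intron and 1.89 at 3.4 kb upstream. The Mlxipl upstream region had a ratio of 1.58, an intron of Acaca 1.38, an intron of Dgat2 1.36 and an intron of Acly 1.33. On the fold scale the groups overlapped at the Insig2 intron and at the Acaca and Dgat2 introns. The Dgat2 and Acly regions overlapped once pileup was divided by each library's median.

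The 3 regions lower in intact females were near starts. At the Dgat2 promoter the values were 7.90, 6.53, 2.14 and 5.71 in intact and 10.8 and 13.57 in hypox females, a ratio of 0.502, and untreated hypox males had 7.92 and 6.74. Mlxipl had a region 1.3 kb into the gene with a ratio of 0.63 and the Insig1 promoter, a partner of Insig2 in holding SREBPs, had 0.823. Intact pool 3 was the lowest pool at all 3, with 2.14, 1.61 and 1.53, and the other 3 intact pools were still below both hypox female pools. The part of that library in these values was not tested. Insig1 overlapped on the fold scale.

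**Figure D3:**
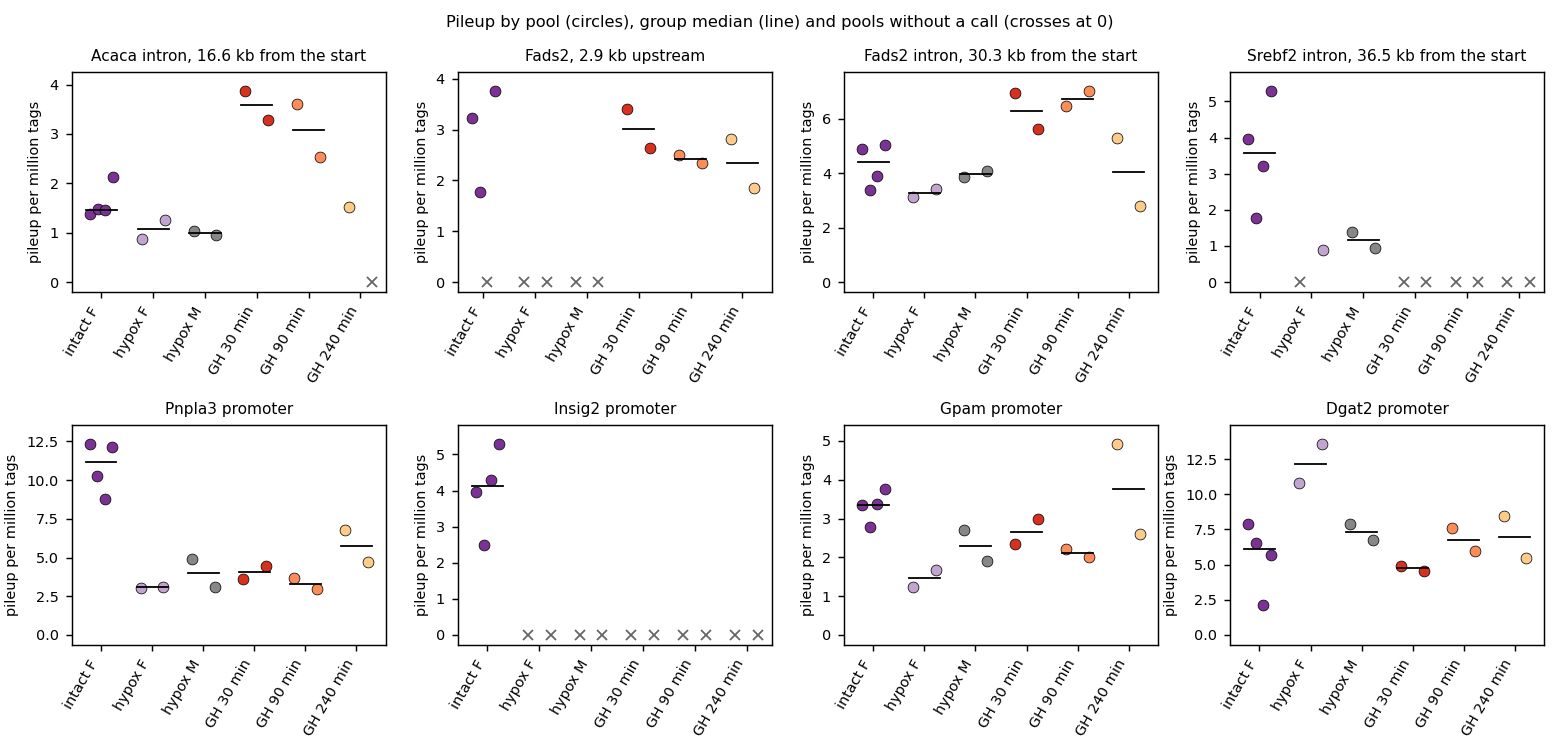
Pileup per 1000000 tags (y axis) is drawn by pool (circles) in 6 groups (x axis) for 8 regions, with the group median as a line where every pool had a call and crosses at 0 for pools without one. Acaca and the Fads2 intron are higher in the pools at 30 and 90 min after GH than in the untreated hypox pools. Pnpla3 is highest in the 4 intact pools, and the Srebf2 intron has no call in any of the 6 GH pools.

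The response to GH was followed in hypox males. An intron of Acaca 16.6 kb from the start (chr11:83958762-83960415) changed most in pileup among regions called in all 4 untreated and all 4 early GH pools. Untreated hypox pools had 0.87 and 1.26 in females and 1.03 and 0.95 in males. At 30 min after GH the values were 3.87 and 3.29 and at 90 min 3.61 and 2.54. At 240 min pool 1 had 1.52 and pool 2 had no call, and intact females had 1.38, 1.48, 1.45 and 2.13. The 4 pools at 30 and 90 min thus exceeded all 9 others with a call. This held also within code G92, where the hypox females serve as controls and sex differs.

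In the same intron the peaks differed in place. In the 4 pools at 30 and 90 min the stronger peak reached to 83960191, 83960197, 83960415 and 83960198. In the other 9 pools no peak in the region went beyond 83959966. The sequence past that point holds STAT5 consensus matches at 83959967-83959975 and, 87 bp on, at 83960054-83960062 and another at 83960373-83960381 lies under the peak of GH 90 min pool 1 alone. The summits in pool 2 at 30 min and 90 min, 83960001 and 83960012, fell between the first pair. Those in pool 1 at 30 and 90 min, the pools with the highest pileup, were at 83959781 and 83959788, outside the pair and close to the summits of hypox male pool 2 at 83959776 and intact pool 4 at 83959789. The 200 bp around the highest summit of the region hold no match. Windows of 200 bp with at least 2 matches made up 0.781% of 22650 regions outside promoters at other genes, counted around their own summits. The Acaca window was placed after the peaks were seen.

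**Figure D4:**
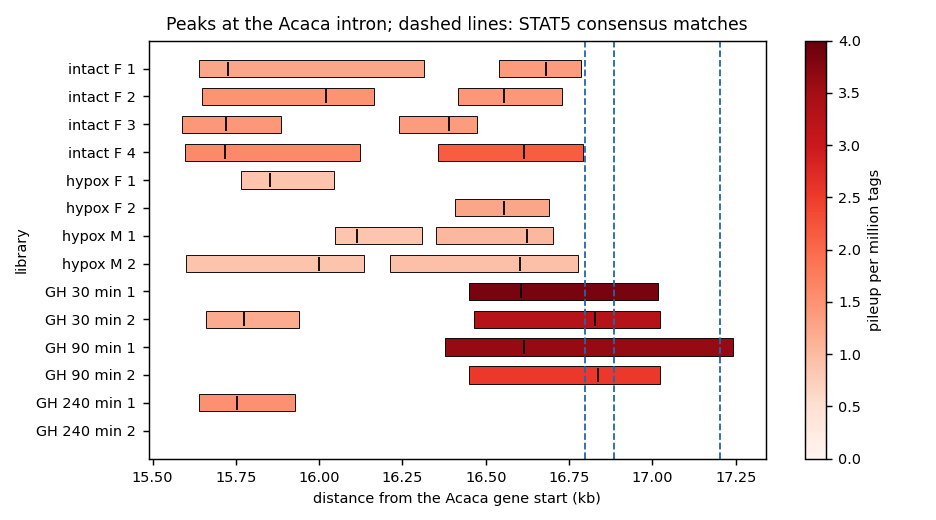
Peaks called in each library (rows) at the Acaca intron are drawn by distance from the gene start in kb (x axis), coloured by pileup per 1000000 tags, with black ticks at summits and dashed lines at matches to the STAT5 consensus. The 4 pools at 30 and 90 min after GH have the darkest peaks, and only their peaks cross the first pair of dashed lines.

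The contrast of the 4 pools at 30 and 90 min with the 4 untreated hypox pools was chosen after these values were seen. Of 55 regions called in all 8 pools, 2 were higher after GH without overlap, 3.64%, against 4.04% at other genes, and 6 were lower, 10.9%, against 7% at other genes. Acaca had a ratio of medians of 3.48, and 0.741% of 9719 regions at other genes had at least that. The Acaca region was picked as the one that changed most of the 55, so this share does not measure how unusual it is. The other higher region was an intron of Fads2 30.3 kb from the start. It had 3.12 and 3.42 in hypox females, 3.85 and 4.09 in hypox males, 6.94 and 5.62 at 30 min, 6.46 and 7.02 at 90 min and 5.28 and 2.80 at 240 min. The 4 early pools were above all 4 untreated pools, with a ratio of 1.84, and the 240 min pools straddled the untreated pools. The 4 intact pools also called this region. Over all 14 libraries its values ran from 2.80 to 7.02 with a median of 4.50, and the early GH pools were not compared with the intact pools.

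An intron of Fdft1 27.6 kb from the start (chr14:63768630-63769512) was also higher in pileup after GH and was left out of that contrast because hypox female pool 1 had no call. It had 1.02 in hypox female pool 2, 1.03 and 0.89 in hypox males, 3.00 and 2.63 at 30 min, 3.14 and 2.48 at 90 min and 1.95 and 1.30 at 240 min. Intact pools 1, 2 and 4 had 1.62, 1.43 and 1.90. The 4 early GH pools were above every other pool with a call, with a ratio of 2.76 to the 3 untreated hypox pools called. The window printed for it holds 1 STAT5 match.

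Such regions were then counted, again after the values were seen. Of 7 regions called in all 4 early GH pools and in 1 to 3 untreated hypox pools, 3 were higher in every early GH pool than in each untreated pool with a call, against 31.2% at other genes. They were the Fdft1 intron, the Acaca intron at 117.9 kb and an upstream region of Srebf1 2.3 kb from the start. Srebf1 had 1.93 and 1.79 at 30 min and 3.09 and 1.74 at 90 min against 1.68 and 1.25 in 2 untreated pools. Of 9 regions called in all 4 untreated and in 1 to 3 early GH pools, 3 were lower after GH. They lay in introns of Dgat2, Elovl5 and Acaca, and the share at other genes was 19.7%. Both sets were chosen by missing calls on the side then counted as lower, and pools without a call were left out. The choice itself thus favours the direction counted, and no effect of GH is read from these counts. Among regions called in every early GH and untreated hypox pool, the shares at other genes were 4.04% higher and 7% lower.

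The 6 lower regions included an upstream region of Fasn with a ratio of 0.518. Its values were 2.1 and 4.26 in hypox females, 3.56 and 1.87 in hypox males, 1.53 and 1.85 at 30 min, 1.40 and 1.34 at 90 min, and 6.08 and 2.52 at 240 min. The highest early pool, 1.85, was just below the lowest untreated pool, 1.87. Introns of Dgat2 had ratios of 0.669 and 0.624, an intron of Gpam 0.659, the Insig1 promoter 0.716 and an upstream region of Elovl5 0.808. With all 6 GH pools against the 4 untreated hypox pools, no region of 54 was higher, against 1.88% at other genes, or lower, against 0.817%, without overlap. Relative to each library's median pileup, 7 regions were lower, and no share at other genes is given on that scale. The median log2 ratio of GH to untreated pools on it was -0.044 here and -0.158 at other genes.

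Calls gave 1 region in all 6 GH pools and none of the 4 untreated hypox pools, of 118 tested, against 0.352% at other genes. No region had the reverse pattern, against 0.144%. The region lies 2.9 kb upstream of Fads2 (chr19:10178555-10179129). Scaled pileup was 3.40 and 2.63 at 30 min, 2.50 and 2.34 at 90 min and 2.82 and 1.84 at 240 min, and fold was 4.93 ± 0.91 (SD, n = 6). Intact pools 1, 2 and 4 called it with 3.23, 1.78 and 3.76, and intact pool 3 and the hypox pools did not. With both sexes of untreated hypox pools empty, the pattern also held within code G92, where the untreated hypox pools are female. Where peaks had to cover 50% of the region it was no longer GH-only.

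An exact two-sided permutation test over the 210 divisions of the 10 hypox pools, with Benjamini-Hochberg adjustment over 38757 regions, called none of the 118, and 0% at other genes. The smallest p that the design allows, 0.00476, was that of the Fads2 region, with an adjusted p of 0.883. Even at this floor no region of the series came near an adjusted p of 0.05. No conclusion is drawn from the absence of adjusted calls. At an unadjusted p of at most 0.05 the test took 3 of 118, against 2.71% at other genes. The other 2 were the Srebf2 intron at 36.5 kb, called in 0 of 6 GH and 3 of 4 untreated pools (exact permutation p = 0.0333, adjusted p = 1.0), and the Acacb intron, in 5 of 6 and 0 of 4 (exact permutation p = 0.0476, adjusted p = 1.0). The unadjusted count was 5 without GH 90 min pool 1 or hypox female pool 1 and 6 without either pool at 240 min.

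At single times a region was GH-only when both GH pools and neither untreated hypox male pool called it, and the 3 times share those untreated pools. At 30 min 5 of 111 regions were GH-only, against 4.52% at other genes, and 8 were untreated-only, against 8.23%. At 90 min 7 of 107 were GH-only, against 4.92%, and 6 untreated-only, against 7.16%. At 240 min 1 of 108 was GH-only, against 2.19%, and 4 untreated-only, against 3.99%. All 5 GH-only regions at 30 min and 6 of 7 at 90 min lay at fatty acid genes, which held 48 and 46 of the regions tested, and the 1 at 240 min was the Fads2 upstream region. None lay at the 14 genes of cholesterol synthesis, where the Fdft1 intron with higher pileup after GH was already called in the untreated males. Those genes held fewer of the regions tested. At 30 min there were 12 from mevalonate to lanosterol and 11 from there to cholesterol, and at 90 min 12 and 10. With so few regions a count of 0 does not set these genes apart, and no difference between roles was tested.

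**Figure D5:**
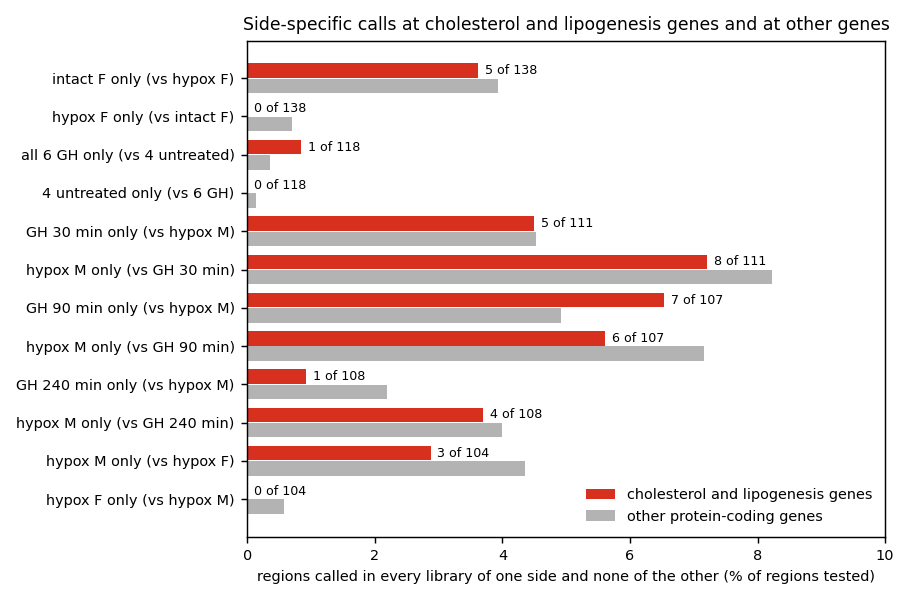
Bars give the percentage of tested regions called in every pool of one side and no pool of the other, for cholesterol and lipogenesis genes (red, with counts) and for other protein-coding genes (grey). The red and grey bars are of similar length in most rows; the counts behind the red bars are 0 to 8.

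The 4 regions that were GH-only at both 30 and 90 min besides Fads2 lay in introns of Acaca, Acacb, Elovl5 and Elovl6. The Acaca intron at 117.9 kb had pileups of 1.73 and 1.37 at 30 min and 1.80 and 1.54 at 90 min, then 0.87 in pool 1 at 240 min, and hypox female pool 1 had 0.72. No intact and no untreated male pool called it. The early GH pools were higher than both other pools with a call.

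The Elovl6 intron at 26.5 kb had 1.33 and 1.25 at 30 min, 0.87 and 0.87 at 90 min and no call at 240 min. Outside GH it was called in intact pool 4 alone, with 1.11. The Elovl5 intron at 37.8 kb, in the gene that elongates polyunsaturated fatty acids, had 1.13 and 1.08, then 1.80 and 1.67, then 0.94 in 1 pool. Intact pool 1 had 1.85 and hypox female pool 2 had 1.5 there, so the groups overlapped.

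The Acacb intron had 1.13 and 0.96 at 30 min, 1.05 and 0.80 at 90 min and 0.65 in pool 1 at 240 min, and intact females had 0.90, 1.13, 1.53 and 1.11. No untreated hypox pool called it. At 90 min an alternative promoter of Acaca at 63.1 kb joined with 2.50 and 1.94, after 1.73 in 1 pool at 30 min, and no other pool called it. An intron of Mlxipl at 2.3 kb had 2.21 and 2.07 and was called elsewhere only in GH 30 min pool 1, with 2.60.

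The 2 hypox female pools carry the code of the GH pools but differ from them in sex. Against them 3 regions were GH-only at 30 min, 5 at 90 min and 2 at 240 min. No share at other genes is given for these counts. The Acaca region at 117.9 kb and the Elovl5 region drop out there because 1 hypox female pool called each. Of the 5 GH-only regions at 30 min, the Acacb and Elovl5 introns were lost with lists of equal length. Of the 7 at 90 min, the Elovl6, Acacb and Mlxipl introns were lost with lists of equal length and with −log10 q of at least 5. The count at 30 min was 13 without GH 30 min pool 2. At 240 min it was 10 without GH 240 min pool 2 and 3 without hypox male pool 2.

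Of the untreated-only regions, the Srebf2 intron at 36.5 kb (chr15:82013812-82014445) and a promoter flank of Fads2 met the rule at all 3 times. At Srebf2, scaled pileup was 3.95, 1.78, 3.21 and 5.29 in intact females, 0.90 in hypox female pool 2 and 1.38 and 0.95 in hypox males. Hypox female pool 1 and all 6 GH pools had no call. Intact pools were therefore highest, untreated hypox pools lower, and GH pools without a call. The neighbouring Srebf2 region at 37.5 kb was called in 5 of 6 GH pools.

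The Fads2 flank 0.5 kb into the gene was called in the 2 hypox male pools alone, with 1.49 and 1.34. It was lost with −log10 q of at least 5 and with lists of equal length, while the Srebf2 region kept its call at all 3 times under both. Further untreated-only regions at 30 min lay at Acacb, Dgat2, Scap, Acaca, Pnpla3 and Gpam. At 90 min they lay at Mlxipl (the promoter and an intron), Dgat2 and Elovl5, and at 240 min at Elovl5 and Pnpla3. The Elovl5 intron at 33.7 kb resembled Srebf2, with 3.71, 1.72, 3.98 and 6.17 in intact females, 1.2 in 1 hypox female pool, 1.03 and 1.13 in hypox males and 1.53 and 1.08 at 30 min, and no call at 90 or 240 min.

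The untreated-only counts also moved with single pools. At 30 min the count was 16 without hypox male pool 1 and 15 without pool 2. At 90 min it was 11 and 14 without those pools and 16 without GH 90 min pool 1. At 240 min it was 8 and 9 without them and 11 without GH 240 min pool 1. Against the hypox females the counts of regions absent after GH were 3, 3 and 0, and the share at other genes is not given.

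Between the sexes without a pituitary, 3 of 104 regions were male-only, against 4.36% at other genes, and none female-only, against 0.569%. The 3 were the Fads2 flank, an upstream region of Acacb 7.2 kb from the start with 0.75 and 0.80, and an intron of Scap with 0.69 and 0.68. Intact females called the Acacb and Scap regions in 3 of 4 pools, with 1.13 to 1.58 and 1.35 to 1.44. None of the 3 regions stayed male-only with −log10 q of at least 5 or with lists of equal length. The male-only count was 6 without hypox male pool 1, 10 without pool 2 and 15 without hypox female pool 2. The female-only count was 2 without hypox male pool 2, and 5 and 1 without hypox female pools 1 and 2.

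Motifs were counted on both strands in 200 bp around the highest summit. For this count a promoter was any region within 1 kb of the start of a protein-coding transcript of any gene, which took 45 of the 148. NF-Y boxes (CCAAT) were in 25 of these 45, 55.6%, against 32.2% of 11245 promoter regions at other genes, and in 28.2% against 27.9% of regions outside promoters. Sp1 boxes (GGGCGG) were in 51.1% against 51.4% of promoters and E-boxes (CACGTG) in 8.89% against 7.97%. The SRE core TCACNCCAC was in 3 of all 148 regions, at Srebf1, Mlxipl and Gpam, or 2.03%, against 0.764% of regions at other genes. None of these sequences contains another, and a match is a description of letters.

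The STAT5 consensus was in 4 of the 7 regions GH-only at 30 or 90 min, the ones at Acaca (2), Elovl5 and Elovl6 printed above, or 57.1%. At other genes it was in 42.9% of 1506 such regions. Among regions untreated-only at those times it was in 1 of 12 here, 8.33%, and in 3.21% of 2584 at other genes. Outside promoters the consensus was in 15.5% of regions here (16 regions) and 10.2% of 22650 at other genes. At least 3 copies of AGGTCA, as in the Srebf2 intron, were in 0.442% of regions outside promoters at other genes, a search added after that sequence was seen.

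Of 24 further genes of the same pathways, 23 had a region, 68 in all, and 9 had one in all 14 libraries. The share of genes with such a region was 75.8% among the members and 35.6% among other protein-coding genes. The 9 of 23 lie nearer to the second share. The side-specific counts of these further genes have no share at other genes beside them. Dgat1 had none. Intact-only regions were at Me1, which makes NADPH for lipogenesis, in 2 introns, with fold of 4.91 ± 0.89 and 5.85 ± 0.89 (SD, n = 4). Hypox-only regions were at Sc4mol, a sterol oxidase, and Agpat2, an acyltransferase, 1 each. None was GH-only or untreated-only over all 6 GH pools. Pklr, the liver pyruvate kinase, had an upstream region GH-only at both 30 min (5.07 ± 0.81, SD, n = 2) and 90 min (4.25 ± 0.70). Mid1ip1 had 1 GH-only region at 90 min. Untreated-only regions were at Soat2, a sterol acyltransferase, at all 3 times, with 1 promoter region at 30 and 90 min (3.02 ± 0.46, SD, n = 2) and another at 240 min. They were also at Scd2, a desaturase, at 30 and 240 min, at Thrsp, a lipogenic regulator, at 90 min (5.28 ± 0.63) and at Sc4mol at 240 min.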

How the data were processed

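DNase-seq libraries of mouse liver were compared through the authors' peak lists, 1 per library. The submitters' processing notes name Bowtie2 and mm9. Per the file headers, MACS2 (2.1.0.20150731) was run on each pool alone, with no control, on uniquely mapped tags of 40 bp, keeping duplicates, shifting by -100 bp and extending to 200 bp, at q 0.05. For each peak the authors deposited a pileup signal and a fold enrichment, a ratio over local background. The deposited −log10 q and −log10 p served to filter and rank peaks in alternatives. A region without a call has no value, and absence means not detected at that depth.

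Regions on 20 chromosomes were linked to protein-coding genes of GENCODE vM1 in mm9, and counts of side-specific calls, exact permutation tests and pileup per 1000000 tags were computed with Python 3.11.15, numpy 2.4.6, pandas 2.3.3 and scipy 1.17.1. The exact test was checked on simulated data. Members and lists were chosen with earlier results of these data known. Regions were named if specific to one side, if among the 8 highest or 4 lowest by fold when each gene's strongest constitutive region is taken, or if pileup did not overlap, up to 6 per direction. The 3 lowest constitutive regions and the Fdft1 and Srebf1 regions higher after GH were chosen after their values were seen. Comparisons of pileup against all 10 hypox libraries and at 30 and 90 min alone were added after the data were seen, and the regions they name were chosen with them. A pool is the replicate, and p-values measure the spread between pools. The authors' combined lists were not used. Intervals are not given, since no counts per region exist here.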

Additional observations from a re-analysis of the deposited data

Results flagged for a closer look

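Among the intact females, the pileup per 1000000 tags of the Acaca intron 16.6 kb from the start was 1.38, 1.45 and 1.48 in pools 1, 3 and 2 and 2.13 in pool 4. The gap between pool 4 and the nearest pool took 0.857 of the range, above Dixon's critical value for 4 samples. Of 24 named regions tested in this way it was the 1 to stand out, and chance alone gives about 1 in 20. Pool 4 was also the intact library with the most peaks, 35851.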

How the results depend on the processing

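Depth, list length and the small number of pools limit these comparisons. Leaving out 1 pool in turn gave the following ranges of counts: intact-only 5 to 13 and hypox-only 0 to 1; GH-only over all times 1 to 2 and untreated-only 0 to 1; at 30 min 5 to 13 GH-only and 10 to 16 untreated-only; at 90 min 8 GH-only throughout and 7 to 16 untreated-only; at 240 min 1 to 10 and 4 to 11; male-only 3 to 15 and female-only 0 to 5; pileup higher in intact 10 to 20 and lower 3 to 8, and higher after GH 0 to 2 and lower 0 to 4. The cause was not tested where single pools moved a count. Fewer pools that must agree raise such counts by construction.

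With peaks of −log10 q of at least 5, untreated-only over all times became 1, at 30 min 4, GH-only at 90 min 4 and male-only 1. With lists of equal length, intact-only became 9, hypox-only 1, untreated-only 3 at 30 min and 2 at 240 min, and GH-only 4 at 90 min and 3 at 240 min. With 50% of a region covered, the constitutive genes became 13, hypox-only 1, GH-only 0 over all times and 0 at 240 min, untreated-only 10 at 90 min, male-only 5 and female-only 1. Within code G92, intact-only became 13, pileup lower in intact 10, higher after GH 1 and lower 2. With hypox females as controls, GH-only became 3 at 30 min and 2 at 240 min, and untreated-only 3, 3 and 0. On the fold scale pileup was higher in intact at 6 regions and lower at 5. Relative to the library median it was lower in intact at 8 and lower after GH at 7. In the contrasts added after the data were seen, all 10 hypox pools gave 1 intact-only region, 1 with higher and 0 with lower pileup, and 30 and 90 min alone gave 2 with higher and 6 with lower pileup, and 3 and 3 among regions called in 1 to 3 libraries of the other side. The 2 kb window gave 24 constitutive genes. Apart from the contrasts added after the data were seen, these alternative counts have no share at other genes beside them.

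Pool numbers did not pair the libraries: correlations of same-numbered pools were -0.131 to 0.261 over 15 pairs of groups, with 3 above 0.1. With the replicate block the exact permutation test gave 0 adjusted calls and 2 at an unadjusted p of at most 0.05.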
